A study of Rattus norvegicus with 6 samples.

Results

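The genes described here are 10 components of the bone morphogenetic protein (BMP) pathway, taken by symbol from the deposited table of 37991 genes: the ligands Bmp2, Bmp4 and Bmp7, the receptors Bmpr1a, Bmpr1b and Bmpr2, the inhibitory Smads Smad6 and Smad7, and the secreted antagonists Nog and Grem1. All 10 were found and all 10 passed the low-count filter that 17797 genes passed. RNA came from SD rat cells of the oligodendrocyte lineage kept in culture, with 3 libraries before differentiation (precursors, replicates 1, 2 and 5) and 3 after it (differentiated cells, replicates 1, 2 and 5). Both groups came from precursors grown in Raff medium, and differentiation followed a change of growth factors that the labels do not specify. The titles of replicates 1 and 2 place precursors at day 0 and differentiated cells at day 3, and no genetic change or drug is named. Each library holds the RNA of a whole culture, so that fewer cells of a type and less RNA per cell cannot be told apart.

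BMP ligands are secreted dimers that bring together type I receptors (Bmpr1a, Bmpr1b) and type II receptors (Bmpr2), and the activated type I receptor phosphorylates Smad1, Smad5 and Smad9, which enter the nucleus with Smad4. Smad6 and Smad7 block this step inside the cell, and noggin (Nog) and gremlin (Grem1) bind ligands outside it. In oligodendrocyte precursors, BMP signalling is known for holding back differentiation and favouring astrocyte features, with the Id genes among its targets, and noggin for relieving that block.

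In differentiated cells the ligand gene Bmp4 was 4.97-fold higher and the inhibitory Smad gene Smad7 was 3.01-fold higher than in precursors, while the ligand gene Bmp7 stood at 0.261 of its precursor level. These were the 3 of 10 members that passed the test (edgeR's quasi-likelihood test, Benjamini-Hochberg adjusted p under 0.05 over all genes), with 2 higher and 1 lower. Over all genes tested 8.86% were called, 5.65% as higher and 3.21% as lower. On the CPM scale the groups did not overlap for 6 of the 10 members, 5 higher and 1 lower, against 30.3% of all genes. The median log2 change of the members (the fitted log2 of the differentiated over the precursor level) was 0.25, beside -0.04 over all genes tested. With the replicate number as a block, 5 members were higher and 1 lower, and in that fit 30.6% of all genes were called. Without both libraries numbered 1, 4 members were higher and 1 lower, where 16.6% of all genes were called, 8.48% as higher and 8.11% as lower. At an unadjusted p under 0.05 there were 6 members, beside 23.1% of all genes.

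The upstream sequences of 2 ligand genes that passed the test as higher, Bmp4 and Bmp6 (a ligand from the wider pathway list described further on), are shown because Smad proteins bind short DNA elements and these are the stretches next to the transcript starts. Each is the 250 bases before the annotated start, from RefSeq on the rat assembly GRCr8, written 5′ to 3′ on the gene's strand. Bmp4 lies at chr15:22101934-22102183 and Bmp6 at chr17:26675262-26675511, both on the minus strand. Capitals mark the Smad box GTCT, or AGAC where it lies on the other strand.
Bmp4: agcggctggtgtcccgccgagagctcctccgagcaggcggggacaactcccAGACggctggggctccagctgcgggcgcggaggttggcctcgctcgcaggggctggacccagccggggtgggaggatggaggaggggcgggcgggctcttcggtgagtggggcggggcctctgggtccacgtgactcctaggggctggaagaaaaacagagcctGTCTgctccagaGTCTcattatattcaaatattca
Bmp6: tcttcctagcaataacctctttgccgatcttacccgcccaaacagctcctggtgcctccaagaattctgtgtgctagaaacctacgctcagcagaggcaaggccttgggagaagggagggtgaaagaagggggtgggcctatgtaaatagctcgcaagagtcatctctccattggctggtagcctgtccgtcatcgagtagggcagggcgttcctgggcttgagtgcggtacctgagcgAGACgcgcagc
The Bmp4 stretch held 2 copies of GTCT and 1 of AGAC, and the Bmp6 stretch held 1 AGAC. Neither held GGCGCC, the GC-rich element bound by Smad1 and Smad5. Among 33469 such windows 84% held GTCT on either strand and 8.69% held GGCGCC. Windows of 6 of the 10 members were matched (Bmp4, Bmpr1a, Bmpr2, Grem1, Nog and Smad7). Of these, 5 held GTCT on either strand and 3 (Grem1, Nog and Smad7) held GGCGCC. A match of letters is a description of the sequence and not a binding site.

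Total counts per library ran from 55522101 to 79898629, and a level of 1 CPM (the read count scaled to the same total in each library, with edgeR's TMM factors) rested on 54.9 to 72 reads. Both replicate 1 libraries stood apart from the others on the second principal component, at 41.8 for precursors and 73.5 for differentiated cells against -55.9 to -3.64 for the other 4. All 8 markers of myelinating oligodendrocytes rose, and their summed level went from between 1400 and 2170 CPM in precursors to between 18200 and 21500 CPM in differentiated cells. Of 6 precursor markers 0 passed the test in either direction (unadjusted p was under 0.05 for Lhfpl3, listed as LOC103692025, at 0.0104 and for C1ql1 at 0.0178). With the replicate block 2 of them were called as higher (Cspg4 and C1ql1) and 3 as lower (Ptprz1, Lhfpl3 and Vcan). Without both libraries numbered 1, C1ql1 was called as higher and Pdgfra and Lhfpl3 as lower. Markers of other cell types were detected in both groups. The 8 astrocyte markers summed to between 4300 and 6090 CPM in precursors and between 7810 and 8090 CPM in differentiated cells, with 3 called as higher and, with the replicate block, 7. Whether the replicates came from separate cultures is not stated, and the p-values then reflect the spread between these 6 libraries alone, which may be technical.

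**Figure D1:**
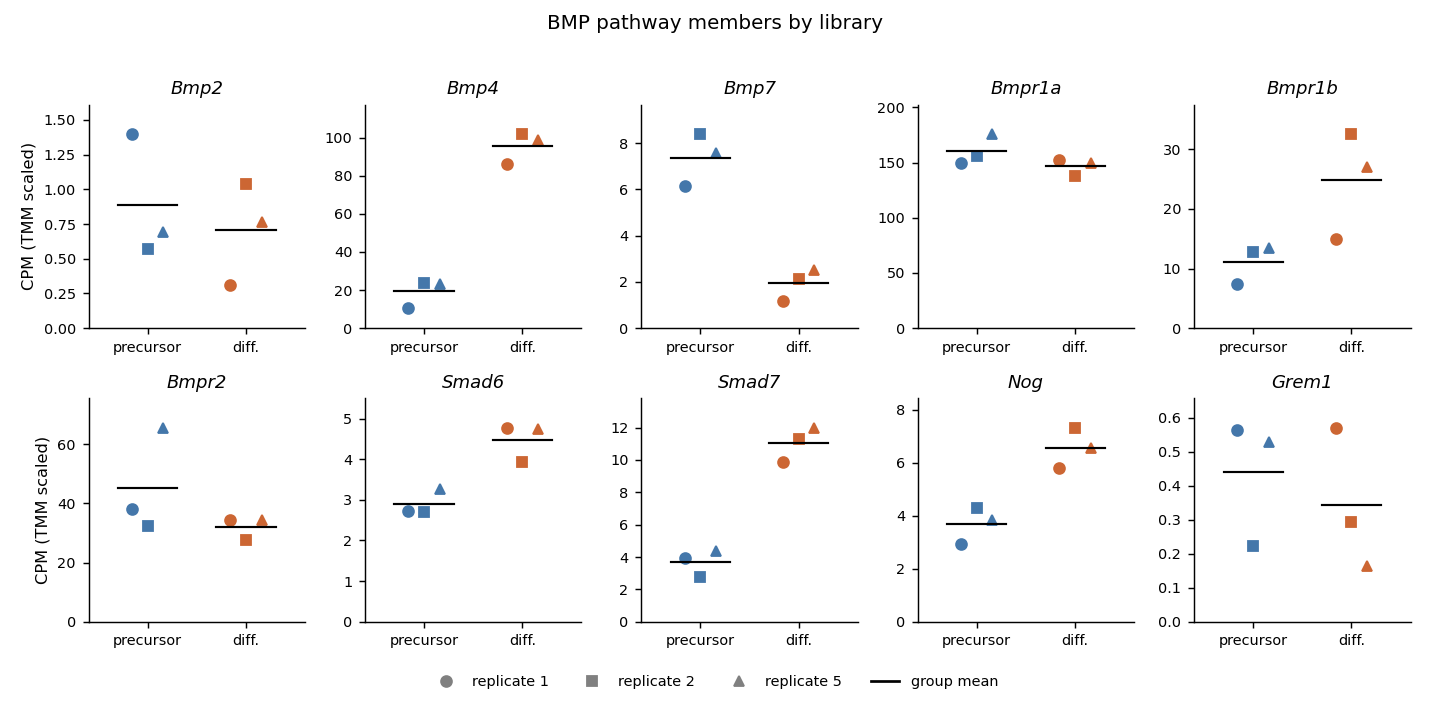
Level of each member in CPM (TMM scaled, vertical axes from 0) in the 3 precursor and 3 differentiated libraries, with a symbol shape for each replicate and the group mean as a line. Bmp4 lies between 10.8 and 23.6 CPM in precursors and between 86.3 and 102 CPM in differentiated cells, and Bmp7 goes the other way without overlap.

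Among the ligands, Bmp4 (25296), which encodes the BMP most often used to steer neural precursors toward astrocytes, was at 10.8, 23.6 and 23.3 CPM in precursors 1, 2 and 5 and at 86.3, 102 and 98.5 CPM in differentiated 1, 2 and 5. Precursor 1 was the lowest library, and each differentiated library exceeded each precursor library. Bmp4 rose from 19.2 ± 7.3 CPM (SD, n = 3) to 95.7 ± 8.33 CPM (log2 change 2.31, SE 0.30, edgeR adjusted p = 0.00427). The 95% interval of the log2 change ran from 1.62 to 3.01. Within the same-numbered pairs the log2 ratio was 2.99, 2.11 and 2.08 for replicates 1, 2 and 5. Its call held in all 13 alternatives computed, with edgeR, DESeq2 or limma adjusted p up to 0.0241. Of the 8 astrocyte markers, Aldh1l1, Gja1 and Aldoc rose in the same libraries, Aldh1l1 from 17.4 to 75.3 CPM. With the replicate block Gfap, Aqp4, Slc1a3 and S100b were called as higher too. Slc1a2 was not called in either fit and went the other way (log2 change -0.3, pair ratios -0.07, -0.3 and -0.45). All 8 myelin markers rose in these libraries. The part of either list in the Bmp4 and Smad7 results was not tested.

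Bmp7 (85272), a ligand that can pair with BMP2 or BMP4 in heterodimers, was at 6.15, 8.41 and 7.57 CPM in precursors and at 1.16, 2.11 and 2.53 CPM in differentiated cells. The groups did not overlap, and replicate 1 was the lowest library in each. Bmp7 fell from 7.38 ± 1.14 to 1.93 ± 0.703 CPM (SD, n = 3; log2 change -1.94, SE 0.33, edgeR adjusted p = 0.0138), and the 95% interval ran from -2.71 to -1.16. The differentiated libraries held 83, 136 and 139 reads of it. Its call was lost without precursor 2 (edgeR adjusted p = 0.0676) and without differentiated 2 (0.0627), at log2 changes of -1.83 and -2. Of 4 markers of choroid plexus and ependyma, 2 were called as lower in the same libraries. The 4 genes summed to between 340 and 573 CPM in precursors and between 200 and 277 CPM in differentiated cells. Of these, Ttr fell to 0.506 and Aqp1 fell to 0.282 of the precursor level (edgeR adjusted p = 0.0257 and 0.0416), while Foxj1 (log2 change 0.28) and Kl (-0.84) did not pass (0.254 and 0.27, and 0.082 and 0.0431 with the replicate block). Fibroblast and pericyte markers summed to between 75.7 and 301 CPM in precursors and between 42.5 and 187 CPM in differentiated cells, with 1 of 7 called, Pdgfrb, as higher. With the replicate block 5 of the 7 (Col1a1, Col1a2, Col3a1, Dcn and Lum) were called as lower, each lower in all 3 pairs, beside Pdgfrb as higher. Of 5 neuron markers tested and 7 microglia markers, 0 were called. With the replicate block 1 neuron marker (Gad1) and 2 microglia markers (Itgam and Ptprc) were called as lower, and 0 as higher. The part of any of these markers in the Bmp7 result was not tested.

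Bmp2 (29373), the closest relative of Bmp4 among the members, was low in both groups. It was at 1.40, 0.573 and 0.695 CPM in precursors and at 0.307, 1.04 and 0.764 CPM in differentiated cells, from 22 to 89 reads. The groups overlapped, with precursor 1 the highest library and differentiated 1 the lowest. Its log2 change of -0.34 (SE 0.61, edgeR adjusted p = 0.805) had a 95% interval from -1.78 to 1.10. Without both libraries numbered 1 it was 0.51 (edgeR adjusted p = 0.583).

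Levels of different ligands were compared per length, in the deposited TPM (transcript abundance per length, scaled to a fixed total per library), within each library. The 15 ligand genes of the lists summed to 10.2, 19 and 21.2 TPM in precursors 1, 2 and 5 and to 40.1, 54.9 and 57.5 TPM in differentiated 1, 2 and 5. Bmp4 made up 51.1%, 65.9% and 67.7% of that sum in precursors and 88.3%, 90.3% and 90.9% in differentiated cells. Bmp7 made up 23.7%, 20.5% and 20% in precursors and 0.975%, 1.54% and 1.89% in differentiated cells. Neither share overlapped between the groups. The Bmp2 share did not overlap either, at 0.742% to 2.85% in precursors and 0.132% to 0.402% in differentiated cells, while the level of Bmp2 itself overlapped. A share of the sum falls when another part of the sum rises. The TPM of Bmp4 over that of Bmp7 was 2.16, 3.21 and 3.40 in precursors and 90.5, 58.5 and 48 in differentiated cells. A two-sided exact permutation test gave p = 0.1 for this ratio (mean log2 ratio 1.52 ± 0.358 and 5.98 ± 0.469, SD, n = 3), the smallest p that 3 against 3 allows.

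**Figure D2:**
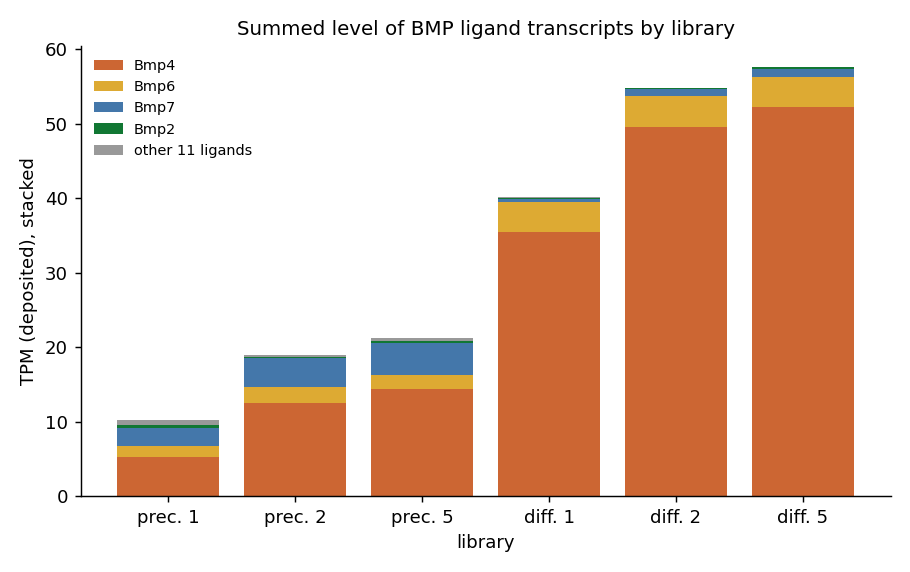
Deposited TPM of BMP ligand genes stacked by library, for 3 precursor (prec.) and 3 differentiated (diff.) libraries, with Bmp4, Bmp6, Bmp7 and Bmp2 drawn separately and 11 other ligands together. The stack is between 10.2 and 21.2 TPM in precursors and between 40.1 and 57.5 TPM in differentiated cells, and Bmp4 is the largest piece in each of the 6 libraries.

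The receptor genes did not pass the test in either direction. Of the 3, Bmpr1b alone had an unadjusted p under 0.05 in edgeR's test, and DESeq2 called it as higher (adjusted p = 0.0116). Bmpr1a (81507), a type I receptor gene, was at 150.0, 156 and 176 CPM in precursors and at 152, 138 and 150.0 CPM in differentiated cells. These ranges overlapped, and its log2 change of -0.13 had a 95% interval from -0.38 to 0.12 (SE 0.11, edgeR adjusted p = 0.526).

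Bmpr1b (310914), the other type I receptor gene, was at 7.34, 12.7 and 13.4 CPM in precursors and at 15, 32.6 and 27 CPM in differentiated cells. The groups did not overlap, and replicate 1 was the lowest library in each. The log2 change was 1.16 (SE 0.34, 95% interval 0.36 to 1.96, edgeR adjusted p = 0.0876), and the pairs gave 1.03, 1.36 and 1.01. Bmpr1b was called with the replicate block (log2 change 1.14, edgeR adjusted p = 0.000917), without both libraries numbered 1 (1.2, 0.00368) and without differentiated 1 (1.43, 0.0307). The TPM of Bmpr1b over that of Bmpr1a was 0.0142, 0.0251 and 0.0216 in precursors and 0.0413, 0.0811 and 0.0682 in differentiated cells, without overlap (exact permutation p = 0.1, two-sided, the smallest possible). Bmpr1a was thus at a higher TPM than Bmpr1b in each library.

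Bmpr2 (140590), the type II receptor gene, was at 38.1, 32.3 and 65.6 CPM in precursors and at 34.5, 27.5 and 34.5 CPM in differentiated cells. Precursor 5 stood above the other 5 libraries, and the groups overlapped. Its log2 change was -0.50 (SE 0.27, 95% interval -1.12 to 0.13, edgeR adjusted p = 0.322) and -0.14 without precursor 5 (edgeR adjusted p = 0.699).

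On the CPM scale both inhibitory Smad genes had a higher level in each differentiated library than in any precursor library, as had 16.5% of all genes, and Smad7 alone passed the test. Smad7 (81516), whose protein binds activated type I receptors and recruits Smurf ubiquitin ligases to them, was at 3.92, 2.74 and 4.38 CPM in precursors and at 9.88, 11.3 and 12 CPM in differentiated cells. It rose from 3.68 ± 0.845 to 11.1 ± 1.08 CPM (SD, n = 3; log2 change 1.59, SE 0.23, 95% interval 1.05 to 2.13, edgeR adjusted p = 0.00655). The pairs gave log2 ratios of 1.33, 2.05 and 1.45. Its call held without any 1 of the 6 libraries, with an edgeR adjusted p up to 0.0393. On the TPM scale it narrowly missed the threshold, with a limma adjusted p of 0.0511 and a log2 change of 0.82 at a pseudocount of 1, and 0.0506 and 1.27 at a pseudocount of 0.1.

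Smad6 (367100), which preferentially inhibits BMP receptors, was at 2.73, 2.70 and 3.26 CPM in precursors and at 4.78, 3.92 and 4.75 CPM in differentiated cells. The log2 change was 0.63 (SE 0.23, 95% interval 0.10 to 1.16, edgeR adjusted p = 0.148), and with the replicate block the same change had an edgeR adjusted p of 0.0437. In TPM the groups overlapped, at 0.931, 1.02 and 1.48 in precursors and at 1.33, 1.31 and 1.68 in differentiated cells. The TPM of Smad7 over that of Smad6 was 0.944, 0.711 and 0.939 in precursors and 1.44, 2 and 1.79 in differentiated cells. The 2 genes thus had similar levels per length in precursors, and Smad7 was the higher one in each differentiated library (exact permutation p = 0.1 for the ratio, two-sided, the smallest possible).

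Of the secreted antagonists, Nog (25495) was at 2.93, 4.29 and 3.85 CPM in precursors and at 5.82, 7.33 and 6.57 CPM in differentiated cells. The groups did not overlap on this scale, while in TPM precursors 2 and 5 (2.99 and 3.22) reached the level of differentiated 1 (2.98). The log2 change was 0.83 (SE 0.23, 95% interval 0.29 to 1.37, edgeR adjusted p = 0.0714), and each pair was higher, by 0.99, 0.77 and 0.77. Nog was called with the replicate block (0.84, edgeR adjusted p = 0.00955), by DESeq2 (0.82, adjusted p = 0.0141) and without both libraries numbered 1 (0.78, edgeR adjusted p = 0.0467). The TPM of Nog over that of Bmp4 was 0.332, 0.239 and 0.225 in precursors and 0.0842, 0.09 and 0.0818 in differentiated cells. The ratio did not overlap between the groups (exact permutation p = 0.1, two-sided, the smallest possible). These ratios were 4 in all (Bmp4 over Bmp7, Bmpr1b over Bmpr1a, Smad7 over Smad6 and Nog over Bmp4), so the Benjamini-Hochberg adjusted p of each was also 0.1.

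Grem1 (50566), an antagonist of the DAN family, was near the lower limit of the data, with 36, 16 and 38 reads in precursors and 41, 19 and 9 in differentiated cells. Its level ran from 0.224 to 0.565 CPM in precursors and from 0.164 to 0.571 CPM in differentiated cells. The ranges overlapped, and the log2 change of -0.35 had a 95% interval from -2.08 to 1.38 (edgeR adjusted p = 0.835).

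**Figure D3:**
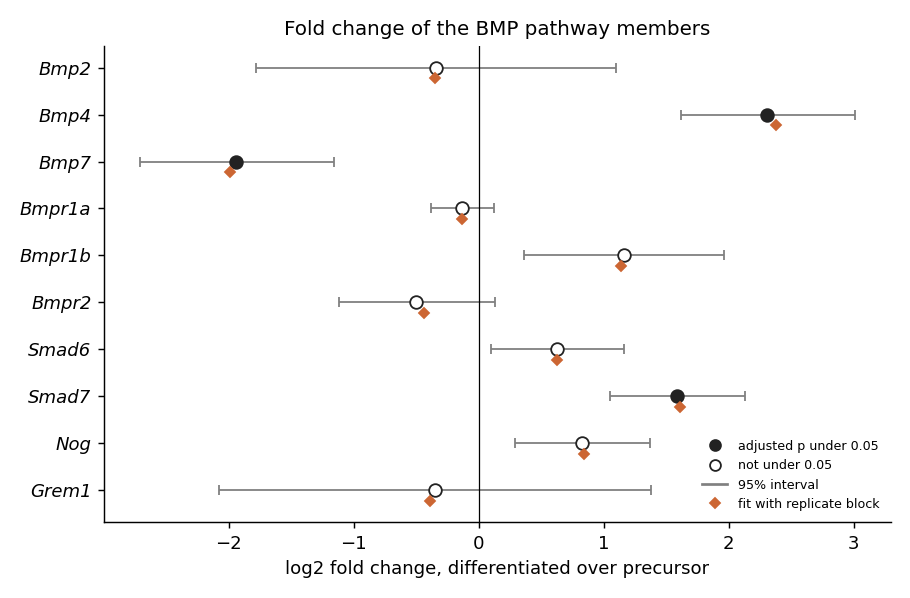
Log2 change of the 10 members, differentiated over precursor, with 95% intervals from edgeR's fit, filled where the adjusted p is under 0.05, and diamonds for the fit with the replicate block. Bmp4 (2.31), Smad7 (1.59) and Bmp7 (-1.94) are filled, and the widest intervals are those of Bmp2 and Grem1.

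Ordered by mean TPM in precursors, Bmpr1a came first (41.2 to 68.2 TPM), followed by Bmp4 (5.22 to 14.4) and Bmpr2 (5.70 to 13.8), whose ranges overlapped. Bmp7 (2.42 to 4.23) and Nog (1.73 to 3.22) overlapped next. Smad6, Bmpr1b and Smad7 then lay together between 0.586 and 1.48 TPM, and Bmp2 (0.141 to 0.291) and Grem1 (0.0652 to 0.187) came last with overlapping ranges. In differentiated cells Bmp4 (35.4 to 52.3 TPM) and Bmpr1a (37.4 to 45.8) led with overlapping ranges, and Bmpr2 (4.6 to 5.98) and Nog (2.98 to 4.46) followed without overlap. Bmpr1b (1.55 to 3.26) overlapped with Nog, with Smad7 (1.91 to 3) and with Smad6 (1.31 to 1.68). Bmp7 (0.391 to 1.09) lay below Smad6 and above Bmp2 (0.0531 to 0.221), and the ranges of Bmp2 and Grem1 (0.0431 to 0.124) overlapped again. Within a library, Bmp4 thus moved up to the level of Bmpr1a, and Bmp7 moved from beside Nog to below both inhibitory Smads.

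The rest of the pathway was read from 7 lists by role, 60 genes in all. Of these, 46 passed the filter, 4 were called as higher (Bmp6, Smurf1, Bmp1 and Tll2) and 2 as lower (Acvr2a and Twsg1), beside the 8.86% called among all genes. Their median log2 change was -0.12. With the replicate block 7 were higher and 4 lower, the added genes being Zeb2, Pcsk6 and Id3 as higher and Eng and Id2 as lower, where 30.6% of all genes were called in that fit.

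**Figure D4:**
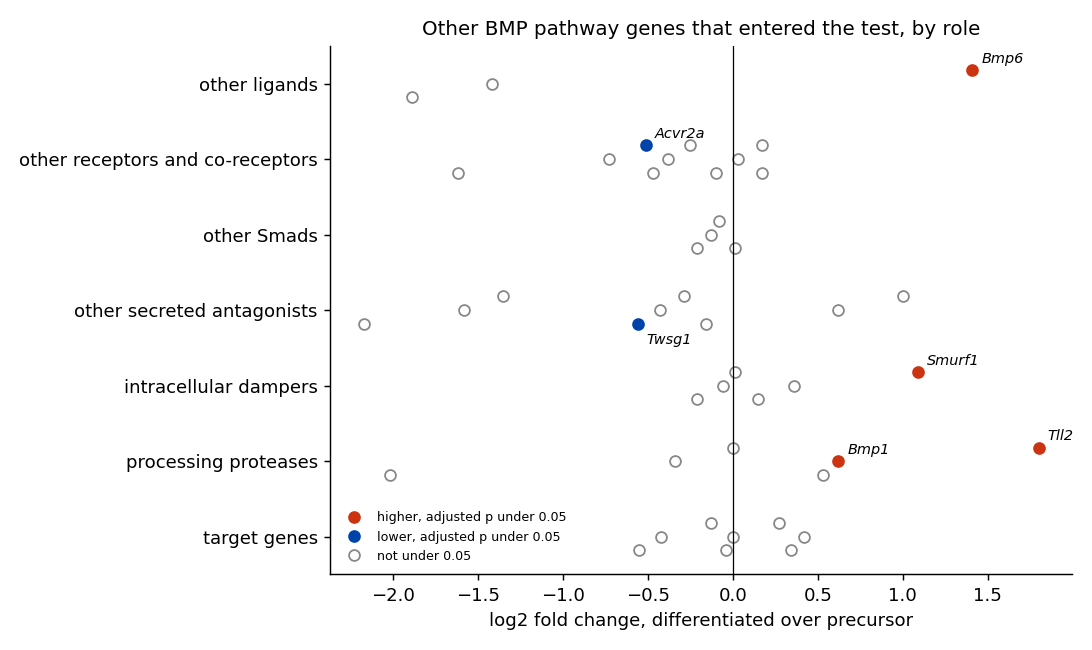
Log2 change, differentiated over precursor, of the 46 other pathway genes that entered the test, in rows by role and coloured where the edgeR adjusted p is under 0.05. Named genes are the 4 called as higher and the 2 called as lower, and the rows of Smads and of target genes hold 0 called genes.

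Among the 12 other ligands, 3 entered the test and Bmp6 (25644), a ligand of the same subgroup as Bmp7, was called. It was at 2.48, 2.82 and 2.14 CPM in precursors and at 7.59, 6.52 and 5.72 CPM in differentiated cells, without overlap. Bmp6 rose with a log2 change of 1.41 (SE 0.23, edgeR adjusted p = 0.0108), while Bmp7 fell. Its call was lost without differentiated 2 (edgeR adjusted p = 0.0567). Of all 15 ligands, 12 were under 1 TPM in each library, and Bmp10, Gdf2 and Gdf10 had 0 reads in each. Gdf7 (252833), a ligand known from the dorsal neural tube, had 40, 55 and 78 reads in precursors and 34, 6 and 5 in differentiated cells and did not pass (log2 change -1.89, edgeR adjusted p = 0.215), but was called as lower without both libraries numbered 1 (-3.3, 0.0319).

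Of 10 other receptors and co-receptors, all tested, 1 was called. Acvr2a (29263), a type II receptor gene shared with activins, fell from 30.8 ± 1.11 to 21.7 ± 1.95 CPM (SD, n = 3; log2 change -0.51, SE 0.12, edgeR adjusted p = 0.0493) and also had the highest mean TPM of that list. Leaving out any of the 6 libraries lost that call (edgeR adjusted p 0.078 to 0.181). Eng (497010), an endothelial co-receptor gene, had a log2 change of -0.73 (edgeR adjusted p = 0.184, and 0.00812 with the replicate block). Of 5 endothelial markers, Cldn5, Pecam1 and Cdh5 were each under 1 CPM in every library. Tek ran from 0.091 to 1.24 CPM and Flt1 from 10.2 to 36 CPM over the 6 libraries.

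The Smads that carry the signal did not pass the test, 0 of 4, with 0 at an unadjusted p under 0.05 and 0 by DESeq2. Over all genes these shares were 8.86%, 23.1% and 16.1%. Smad4 (50554), the shared partner, had the highest mean TPM of the 4 and was at 78.6 ± 6.17 and 68.2 ± 3.22 CPM (log2 change -0.21, 95% interval -0.46 to 0.05). The intervals of Smad1 and Smad5 ran from -0.45 to 0.19 and from -0.49 to 0.33.

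Of 13 other secreted antagonists, 9 entered the test and 1 was called. Twsg1 (363294), whose protein twisted gastrulation binds BMPs together with chordin, fell from 88.2 ± 12.7 to 59.6 ± 2.07 CPM (SD, n = 3; log2 change -0.56, SE 0.13, edgeR adjusted p = 0.0417). Leaving out any single library except precursor 1 lost that call (edgeR adjusted p up to 0.148). Nbl1 (50594), a DAN family antagonist gene, had the highest mean TPM of that list and was at 73.6 ± 10.7 and 65.7 ± 20.8 CPM (edgeR adjusted p = 0.754). Averaged over the 6 libraries, Nbl1 and Twsg1 stood at 42.6 and 20.3 TPM, above Nog at 3.28 TPM, and the other 11 of the list stood below Nog.

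Among 6 intracellular dampers, Smurf1 (690516), a ubiquitin ligase for BMP Smads and their receptors that works with Smad6 and Smad7, was called. It was at 52.7, 47.8 and 61.3 CPM in precursors and at 107, 106 and 132 CPM in differentiated cells. Smurf1 rose with a log2 change of 1.09 (SE 0.14, edgeR adjusted p = 0.00475), held in all 6 leave-one-out fits, and had the highest mean TPM of that list. Its relative Smurf2 (303614) was at 40.4 ± 1.26 and 40.8 ± 2.24 CPM, with a 95% interval of the log2 change from -0.24 to 0.26. Zeb2 (311071), a Smad-interacting repressor known to promote myelination, was higher in each pair (log2 ratios 0.16, 0.61 and 0.34). Its log2 change was 0.36 (edgeR adjusted p = 0.252, and 0.0281 with the block).

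Of 6 processing proteases, Bmp1 (83470) and Tll2 (365460), astacin metalloproteases of which the first cleaves chordin, were called. Bmp1, which is not a BMP ligand despite its name, rose from 111 ± 15.4 to 170 ± 9.79 CPM (log2 change 0.62, SE 0.13, edgeR adjusted p = 0.0273) and had the highest mean TPM of that list. Tll2 rose from 0.515 ± 0.162 to 1.80 ± 0.42 CPM (log2 change 1.80, SE 0.41, edgeR adjusted p = 0.0375). The call of Bmp1 held in 2 of the 6 leave-one-out fits, those without either replicate 1 library, and that of Tll2 in 1, without differentiated 1. Furin (54281), a convertase that matures BMP precursors, was at 37.5 ± 7.72 and 37.4 ± 2.44 CPM.

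Of 9 genes listed here as induced by BMP signalling, 8 were tested and 0 passed, beside 8.86% of all genes. At an unadjusted p under 0.05 in edgeR's test there were 2 (Id2 and Id3), beside 23.1% of all genes. This list leaves out genes placed under other roles, such as the inhibitory Smad genes. Of these, Smad7 was called as higher and Smad6 was not called (edgeR adjusted p = 0.148). DESeq2 called Id2 as lower (adjusted p = 0.0316). The Id genes encode proteins that bind and silence basic helix-loop-helix factors such as the Olig proteins. Id3 (25585), the highest of the list per length, was at 247, 381 and 318 CPM in precursors and at 371, 465 and 425 CPM in differentiated cells, with overlap. Its log2 change was 0.42 (95% interval 0.01 to 0.82, edgeR adjusted p = 0.207, and 0.0056 with the replicate block). Id2 (25587) was at 89.4, 84.3 and 71.6 CPM in precursors and at 68.4, 54.8 and 43.8 CPM in differentiated cells, without overlap. Its log2 change was -0.55 (95% interval -0.98 to -0.13, edgeR adjusted p = 0.116, and 0.00366 with the block). Id1 (25261) had a log2 change of -0.13 (95% interval -0.45 to 0.19) and Id4 (291023) one of 0.34 (-0.08 to 0.77). Id2 and Id3 thus had values on opposite sides of 0 within each of the 3 pairs, on the CPM scale and on the TPM scale, with log2 CPM ratios of -0.39, -0.62 and -0.71 for Id2 and of 0.59, 0.29 and 0.42 for Id3.

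**Figure D5:**
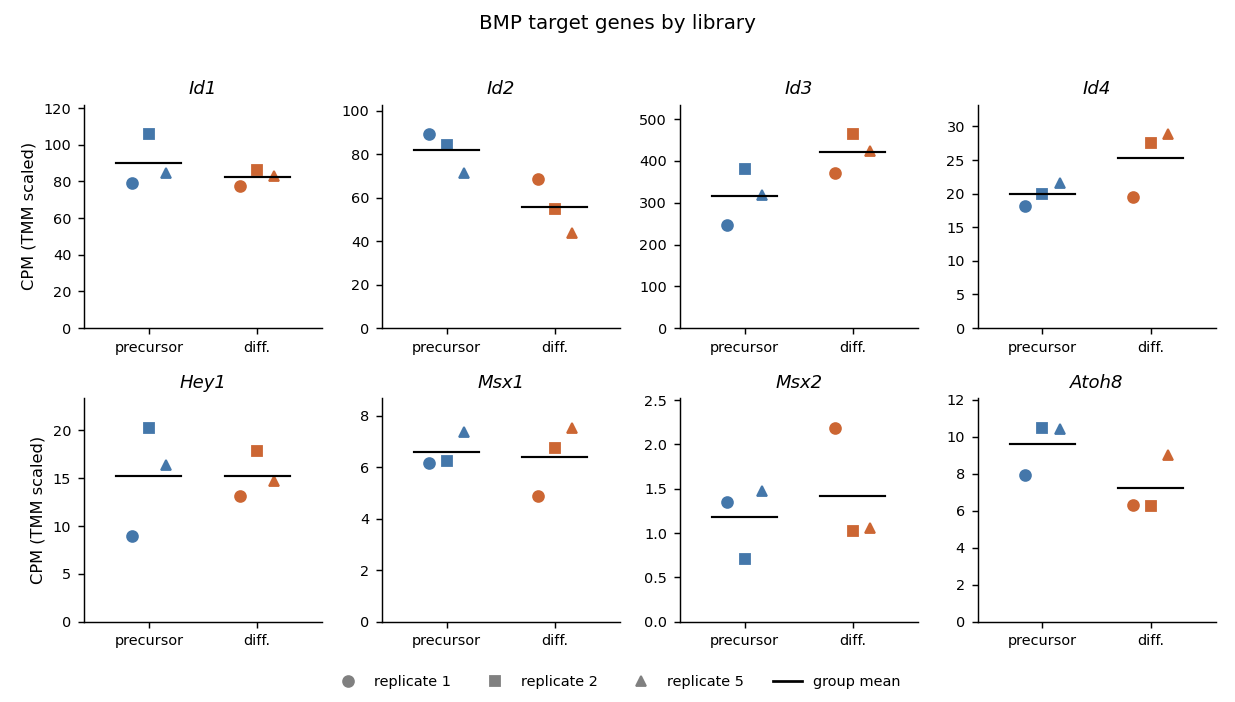
Level in CPM (TMM scaled, vertical axes from 0) of 8 BMP target genes in the 3 precursor and 3 differentiated libraries, with a symbol shape for each replicate and the group mean as a line. Id2 is the 1 gene whose groups do not overlap, and Id3 has the highest levels, from 247 to 465 CPM.

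For the member with the highest mean CPM in each role, the protein-coding genes with the most similar pattern over the 6 libraries were listed from 11173 genes at 5 CPM or more, by Pearson's r of log2 CPM, as a description. Bmp4 was closest to Gltp (glycolipid transfer protein, r = 0.9982), Prkcz (0.9976) and Cnnm1 (0.9975). Smad7 was closest to Taf4b (0.998), Cnr1, the cannabinoid receptor gene (0.9971), and Tns3 (0.9963). For Nog these were Eprs (0.9993), Ermp1 (0.9988) and Actr1b (0.9987), and for Bmpr1a they were Klhl24 (0.9843), Prune2 (0.977) and Enah (0.9766). The 6 points share their libraries and the contrast between the 2 groups, and with 6 points many genes reach high values.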

How the data were processed

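Total RNA was extracted with ISOGEN and made into stranded total RNA libraries, per the labels' protocols. The submitters' processing notes name the aligner HISAT2 2.1.0, the assembler StringTie 2.1.3b, the read trimmer Trimmomatic 0.38, bcl2fastq 2.20.0 and a human genome build, whereas the table holds rat gene identifiers. Which rat build was used, and whether counting used strand, is not given in the sources used here. Whether reads of overlapping and antisense genes were counted apart is therefore not known. The authors deposited 1 table with whole-number read counts per gene that are not normalized. The deposited FPKM values, scaled by the authors for length and depth, were not used. The TPM values deposited by the authors were used to compare genes within a library. Rn7sl1, a small noncoding RNA, took 24% to 38.7% of the TPM and 5.93% to 12.5% of the counts of a library, so the main test used counts. Its share of the TPM was 24% to 32.8% in precursors and 34.2% to 38.7% in differentiated cells. The summed ligand TPM and the limma fits were not corrected for this difference.

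Differentiated and precursor libraries, grouped by their labels, were compared with edgeR 4.0.16 in R 4.3.3 (quasi-likelihood, TMM, low-count filter, robust), with p-values adjusted over all 17797 genes tested. The SE is the size of the log2 fold change divided by the square root of F. Alternatives used DESeq2 1.42.0, limma 3.58.1 on log2(TPM + 1) and log2(TPM + 0.1), library size alone, no filter, a replicate block, and fits without single libraries or without both replicate 1 libraries. On simulated counts for 17368 genes the edgeR test recovered 29% of 100 genes changed by 1 on the log2 scale and 74% of 100 changed by 2, for this comparison. Same-numbered libraries deviated together from their group means, with correlations across genes of 0.421, 0.197 and 0.272 for numbers 1, 2 and 5. For unlike numbers the correlations ran from -0.308 to 0.105. The numbers, which come from the titles, were therefore taken to pair the samples in the replicate block and the pair ratios. This pairing was chosen from the same data that the block then used. Its correlation was highest for number 1, and unlike numbers 2 and 5 also had positive correlations (0.0987 and 0.105). The main test did not use the pairing, and no label says that a number marks a shared culture. The members, the lists and the tests were chosen with earlier results of these data known. Members, called genes of the other lists, the gene with the highest mean TPM of each list and Id1 to Id4 are named, and Gdf7, Bmp10, Gdf2, Gdf10, Eng, Smurf2, Zeb2, Smad1, Smad5, Furin and Pcsk6 were added after their values were seen. The list gene Hjv is listed as Hfe2 in the table, and was matched by its identifier. Upstream sequences are from RefSeq (GRCr8), and no reads were placed on them.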

Additional observations from a re-analysis of the deposited data

How the results depend on the processing

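The 10 members kept their direction under all 13 alternatives except Bmp2, whose log2 fold change was 0.16 without precursor 1, 0.04 without differentiated 1 and 0.51 without both libraries numbered 1. Over its leave-one-out fits it ran from -0.73 to 0.16. The cause was not tested. With the replicate block 5 members were higher, as were 14.9% of all genes. By DESeq2 4 were higher and 1 lower, where 16.1% of all genes were called in either direction. Without both libraries numbered 1 there were 4 higher, as were 8.48% of all genes. By limma on log2(TPM + 1) or log2(TPM + 0.1) 1 was higher, beside 487 and 509 of the 17797 genes tested. Leave-one-out fits gave 2 to 3 members higher and 0 to 1 lower, 0 lower without precursor 2 and without differentiated 2. Over all genes these fits gave 484 to 947 higher and 148 to 561 lower. Of the other pathway genes, 7 were higher and 4 lower with the replicate block, where 30.6% of all genes were called. With library size alone 2 were higher (678 of all genes), and without the filter 1 was lower (534 of all genes). By limma on either TPM scale 1 was higher and 1 lower (1000 and 1090 of all genes lower). Another 4 were lower without both libraries numbered 1, as were 8.11% of all genes. The main test gave 4 higher and 2 lower, beside 1005 and 571 of all genes. Leave-one-out fits gave 1 to 4 higher and 0 to 2 lower. They gave 2 higher without precursor 2, precursor 5 or differentiated 5, 1 higher without differentiated 2, 1 lower without precursor 1, and 0 lower without precursor 2, precursor 5, differentiated 2 or differentiated 5.

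Over all genes, 1005 were higher and 571 lower. These were 2643 and 2797 with the replicate block, 1514 and 1242 by DESeq2, 487 and 1000 by limma on log2(TPM + 1), 509 and 1090 on log2(TPM + 0.1), and 1529 and 1462 without both libraries numbered 1. With library size alone they were 678 and 1006. Leave-one-out fits gave 484 to 947 higher and 148 to 561 lower. The median log2 fold change of all genes was -0.19 with library size alone, and -0.17 and -0.26 on the 2 TPM scales. The replicate block changed the calls of Bmpr1b, Smad6 and Nog among the members and no other. Bmp2 and Grem1 rested on 9 to 89 reads per library and varied 2.44 to 3.49 times between libraries of 1 group, and the part of depth in their wide intervals was not tested.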
